A study of Mus musculus with 16 samples.

Results

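Livers of mice with no labelled challenge differed widely in *Saa1*, which encodes serum amyloid A1, and the 16 livers of the series were divided into a high group and a low group, chosen by their *Saa1* value. A liver was placed in the high group when its *Saa1* level was 1000 FPKM or more (8 mice), and in the low group when it was below 300 FPKM (7 mice), and 1 mouse between these limits was left out of the comparison. FPKM are fragment counts that the authors scaled to transcript length and to library size. All were 8-week-old male mice on normal chow, which the labels call fed, and 1 library was made from the liver of each. All 16 carried *Fgl1* fl/fl alleles. The WT mice (*Fgl1* LWT, 8 mice) were littermates without CRE, and in the LKO mice (*Fgl1* LKO, 8 mice) CRE was driven by the albumin promoter, so that the deletion is confined by design to hepatocytes and *Fgl1* of other cells stays intact. The lines were crossed to C57BL/6 CRE and FLPO strains, and the mice had free access to chow. The high group held 3 WT and 5 LKO mice, and the low group 4 WT and 3 LKO mice, so that both genotypes stood in both groups. No label describes an infection, an injury or another stimulus in any of these mice.

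The acute-phase response is the change in the plasma proteins made by hepatocytes after infection, injury or stress. Interleukin-6 acting through STAT3, and interleukin-1 acting through NF-kB and C/EBP factors, raise the transcription of positive acute-phase genes such as those for serum amyloid A, haptoglobin and orosomucoids, while negative acute-phase proteins, such as albumin and transthyretin, decline. Fibrinogen-like 1, the product of *Fgl1*, is itself a hepatocyte protein known to be induced by interleukin-6.

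The *Saa1* values chose the groups and are given as a description, with no test. In the low group, *Saa1* was 63.8, 71.4, 66.9 and 124.0 FPKM in WT replicates 1 to 4, and 68.4, 252.3 and 181.0 FPKM in LKO replicates 3, 4 and 7. In the high group, it was 13092, 16268 and 1354 FPKM in WT replicates 5, 7 and 8, and 1827, 3545, 7669, 3016 and 2890.3 FPKM in LKO replicates 1, 2, 5, 6 and 8. The medians were 71.4 and 3280.4 FPKM. The mouse left out, WT replicate 6, had 938.4 FPKM, just under the limit of the high group, whose lowest member was WT replicate 8 at 1354 FPKM, and the highest member of the low group was LKO replicate 4 at 252.3 FPKM. *Saa1* made up between 0.172% and 2.27% of the summed FPKM of a high mouse and between 0.009% and 0.036% of a low mouse.

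Some properties of the libraries moved with the groups, and their part in the results below was not tested. The number of reads is unknown. The summed FPKM was 705730 to 786188 in high mice (median 723094) and 673153 to 738174 in low mice (median 695123, exact permutation test within genotype, two-sided, p = 0.0255), and the median-ratio size factor was 0.912 to 1.02 in high and 0.996 to 1.07 in low mice (exact permutation p = 0.00612). Between 14116 and 14407 genes were above 0 in these 15 mice. The mouse numbers in the labels were grouped here into 4 runs, 36 to 38, 48 to 55, 60 to 64 and 69 to 72. The labels themselves name no runs. Mouse 55 (LKO replicate 3, low) lies between 50 and 60 and could have been placed in the second or the third run. It was placed in the second. The first run (36 to 38) holds only 3 low WT mice, so that for this run *Saa1* and the run cannot be told apart. The second run held 2 high and 2 low mice, the third 3 high and 1 low, and the fourth 3 high and 1 low. The hepatocyte markers were high in every mouse, among them *Alb*, with at least 31146 FPKM.

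*Saa1* was set aside, and for each of the other 12769 genes whose mean reached 0.1 FPKM, log2(FPKM + 1) was compared between high and low mice with limma, with genotype as covariate and Benjamini-Hochberg adjustment, and a gene was called at an adjusted p under 0.05. Adding 1 shrinks the difference of a gene whose FPKM is low. The test is one of association with *Saa1* across mice, since no label sets the groups, and the p-values measure the spread between these mice. Called higher in high-*Saa1* livers were 5 genes (0.0392% of those tested): *Saa2*, *Lcn2*, *Fgl1*, *Lrg1* and *Apcs*. Called lower was 1 gene (0.00783%), *Fam171a1*. At an unadjusted p under 0.05 there were 252 higher and 1453 lower genes, and the median difference over all genes was -0.06 (-0.01 after median-ratio scaling). In a second fit, log2(*Saa1* FPKM + 1) entered as a continuous term over all 16 mice, and 79 genes rose with *Saa1* (0.619%) and 132 fell (1.03%). After median-ratio scaling, this split became 94 higher and 45 lower genes. The continuous term gave 2329 genes at an unadjusted p under 0.05, 418 higher and 1911 lower, and the unadjusted counts given for lists are by this term and are to be read against these of 12769. With a further term for the run of mouse numbers the split was 18 and 2, without the run 36 to 38 it was 20 and 5, and without WT replicates 5 and 7, the mice with the highest *Saa1*, it was 12 and 4. Leaving out 1 mouse moved the counts. Between the groups, 41 higher and 108 lower genes were called without LKO replicate 7, 35 and 9 without WT replicate 8, and 3 genes in all without any one of WT replicates 1, 2, 3, 5 and 7 and LKO replicates 2, 3, 5 and 6. With the continuous term, the total of 211 became 463 without LKO replicate 7, 342 without LKO replicate 6, and 45 to 134 without any one of WT replicates 1, 2, 3, 4, 5 and 7 and LKO replicates 3 and 5. All 6 genes called between the groups were also called by the continuous term, and 10 of the 79 and 1 of the 132 passed in each of these 4 alternatives and also whichever mouse was left out: *Saa2*, *Lcn2*, *Fgl1*, *Orm2*, *Lrg1*, *Orm1*, *Hp*, *Hpx*, *Tmem176a* and *Saa3* among the higher genes, and *Fam171a1* among the lower. The other genes that passed with the run as a term were *Prg4*, *Tmem176b*, *Apcs*, *Prtn3*, *Slc3a1*, *Clu*, *Cd302* and *Cyb561*, which were higher, and *Ephx1*, which was lower, and no further gene that rose or fell with *Saa1* did. Below, rose and fell refer to the continuous term unless the groups are named.

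*Saa2* showed the largest difference of all genes tested. It encodes serum amyloid A2, an apolipoprotein of high-density lipoprotein in the acute phase, and lies next to *Saa1* on chromosome 7 (GRCm39 46401214 to 46403737, plus strand, against 46389916 to 46392547, minus strand, for *Saa1*). It had 869 to 16031 FPKM in high mice (median 2487.5) and 16.8 to 88.3 FPKM in low mice (median 34.9). No high mouse overlapped a low one, and LKO replicate 1 was the lowest of the high and LKO replicate 4 the highest of the low mice. The difference was 6.21 on the log2 scale (SE 0.646, limma adjusted p = 0.00072), 7.48 within WT and 5.05 within LKO mice. The ratio of *Saa2* to *Saa1* was 0.328 to 0.985 in high mice (median 0.744) and 0.263 to 0.51 in low mice (median 0.402). The transcripts of both genes are 94.8% identical over 649 aligned bases, and of 658 windows of 100 bases of *Saa1* none occurs unchanged in *Saa2*. Reads may still have been shared between them by the authors' counting, so that *Saa2* is not a measure fully separate from the one that chose the groups.

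*Lcn2*, for lipocalin 2, which binds bacterial siderophores, came next. Its level was 37.0 to 921 FPKM in high mice (median 139) and 5.17 to 14.3 FPKM in low mice (median 8.44). LKO replicate 1 was the lowest high mouse, at more FPKM than any low mouse, and WT replicate 6, left out for its *Saa1*, had 11.2 FPKM, within the low range. The log2 difference was 4.47 (SE 0.56, limma adjusted p = 0.003546), 5.37 within WT and 3.64 within LKO mice. *Saa2* passed in 30 and *Lcn2* in 29 of 32 alternatives, and the highest limma adjusted p-values were 0.0918 for *Saa2*, without the run 36 to 38, and 0.428 for *Lcn2*, in LKO mice alone. The 32 alternatives counted for each gene are limma fits, and the rank-sum test is not among them. In 15 of them 1 mouse was left out, so that these share most mice and are not independent.

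*Lrg1* and *Apcs*, both for secreted liver proteins, were the other acute-phase genes called. *Lrg1*, for leucine-rich alpha-2-glycoprotein, had 356 to 1382 FPKM in high mice (median 968) and 204 to 373 FPKM in low mice (median 246). The groups touched only where WT replicate 8, the high mouse with the least *Saa1*, lay below LKO replicate 7. The log2 difference was 1.58 (SE 0.249, limma adjusted p = 0.03349). *Apcs*, for serum amyloid P component, the major acute-phase pentraxin of the mouse, had 176 to 609 FPKM in high mice (median 271) and 96.3 to 135 FPKM in low mice (median 109), without overlap. Its log2 difference was 1.43 (SE 0.239, limma adjusted p = 0.04628). These calls were near the threshold, and *Lrg1* passed in 12 and *Apcs* in 11 of the 32 alternatives, and their differences were at least 1.17 and 1.02 in those alternatives that give one.

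*Fam171a1*, for a membrane protein, was the gene called lower. It had 0.53 to 0.99 FPKM in high mice (median 0.79) and 1.09 to 1.7 FPKM in low mice (median 1.39). No mouse overlapped, but the levels were low and the log2 difference was -0.43 (SE 0.072, limma adjusted p = 0.04628). It passed in 7 of 32 alternatives, and with the continuous term its limma adjusted p was 0.000384. The highest limma adjusted p was 0.932, in LKO mice alone.

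**Figure D1:**
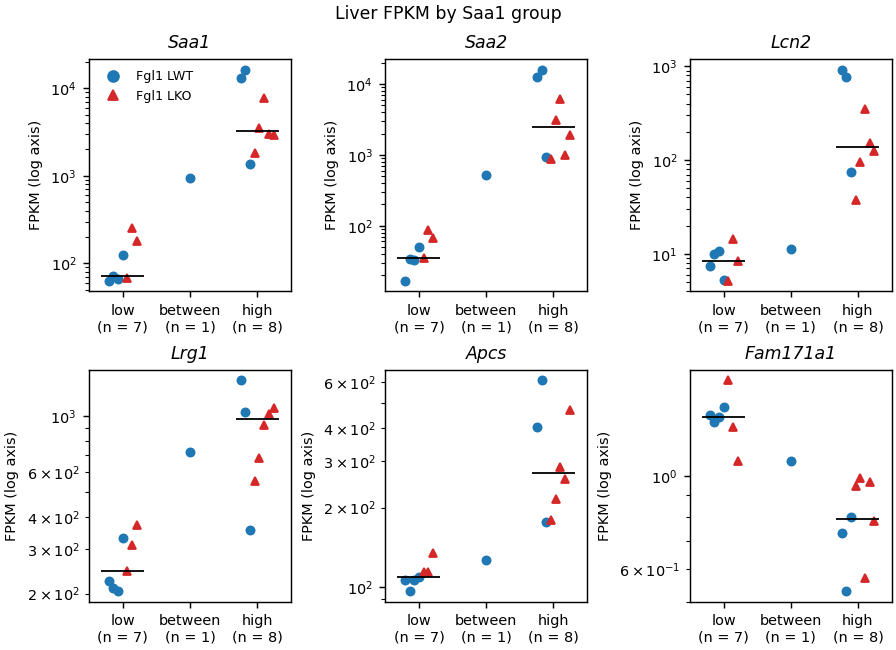
FPKM on a log axis of *Saa1*, which chose the groups, and of 5 called genes in each mouse by *Saa1* group, with symbols for genotype and a line at the group median. *Saa2*, *Lcn2* and *Apcs* of the 8 high mice lie above all 7 low mice, *Lrg1* touches at 1 mouse, and *Fam171a1* of the high mice lies below 1 FPKM.

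*Fgl1*, the gene deleted in LKO hepatocytes, was called higher in high-*Saa1* livers in the fit over both genotypes. In WT mice it had 201.1, 202.1, 157.8 and 247.7 FPKM at low *Saa1* and 1040.0, 1331 and 480.4 FPKM at high *Saa1*, with 376.0 FPKM in the mouse between. In LKO mice it had 13.2, 15.4 and 36.2 FPKM at low *Saa1* and 51.0, 49.5, 89.1, 71.2 and 90.0 FPKM at high *Saa1*. Within each genotype every high mouse lay above every low mouse, whereas across genotypes the groups overlapped, since each LKO mouse had less *Fgl1* than any WT mouse. The log2 difference with genotype as covariate was 1.92 (SE 0.246, limma adjusted p = 0.003546). It was 2.12 within WT and 1.74 within LKO mice, and no difference between the genotypes was detected (limma interaction, adjusted p = 0.8826). In exact permutation tests, two-sided, p was 0.00102 over both genotypes, 0.0571 in WT and 0.0357 in LKO mice, each the smallest the arrangement of mice allows. The FPKM of the whole gene also counts reads outside the deleted exon and from cells other than hepatocytes, so that the *Fgl1* level of LKO mice is not a level of intact transcript. *Fgl1* lies on chromosome 8 (GRCm39 41644457 to 41668205, minus strand). It passed in 26 of 32 alternatives. The limma adjusted p was 0.535 without the genotype covariate, 0.483 in LKO mice alone, 0.198 without the run 36 to 38, 0.155 with the replicate block, 0.141 with the run as a term and 0.067 without the pair of mice with the highest *Saa1*, and the difference stayed between 1.24 and 1.76 in these.

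**Figure D2:**
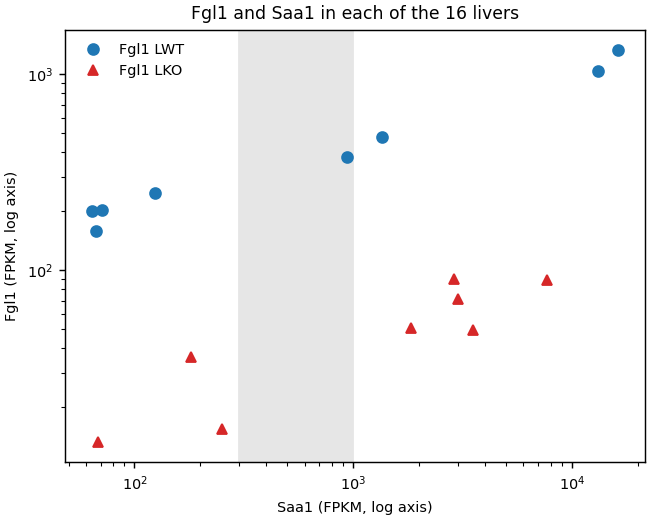
*Fgl1* against *Saa1* in each of the 16 livers, FPKM on log axes, with symbols for genotype and grey between the limits of 300 and 1000 FPKM. Within WT (157.8 to 1331 FPKM) and within LKO (13.2 to 90.0 FPKM), the mice at high *Saa1* lie above those at low *Saa1*.

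The bases upstream of these genes are shown for *Saa1*, for the called genes *Saa2*, *Lcn2* and *Apcs*, in which a searched motif was found, and for *Orm2* and *Saa3*, acute-phase genes that rose with *Saa1* and are described below. Each sequence is the 250 bases before the RefSeq start site, read 5′ to 3′ on the strand of the gene (GRCm38.p6), with motif matches in capitals. The positions are chr7:46742981-46743230 (minus strand) for *Saa1*, chr7:46751583-46751832 (plus) for *Saa2*, chr2:32387740-32387989 (minus) for *Lcn2*, chr1:172895055-172895304 (minus) for *Apcs*, chr4:63362199-63362448 (plus) for *Orm2* and chr7:46715677-46715926 (minus) for *Saa3*.
Saa1: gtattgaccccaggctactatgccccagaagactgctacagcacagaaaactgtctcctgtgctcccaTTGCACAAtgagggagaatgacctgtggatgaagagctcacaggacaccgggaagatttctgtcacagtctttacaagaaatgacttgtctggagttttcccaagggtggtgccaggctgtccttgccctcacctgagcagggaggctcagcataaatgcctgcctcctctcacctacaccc
Saa2: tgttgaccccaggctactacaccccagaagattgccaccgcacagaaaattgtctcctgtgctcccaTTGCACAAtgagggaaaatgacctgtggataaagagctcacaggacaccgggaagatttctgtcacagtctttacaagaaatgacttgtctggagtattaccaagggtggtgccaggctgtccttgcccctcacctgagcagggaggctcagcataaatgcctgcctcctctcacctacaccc
Lcn2: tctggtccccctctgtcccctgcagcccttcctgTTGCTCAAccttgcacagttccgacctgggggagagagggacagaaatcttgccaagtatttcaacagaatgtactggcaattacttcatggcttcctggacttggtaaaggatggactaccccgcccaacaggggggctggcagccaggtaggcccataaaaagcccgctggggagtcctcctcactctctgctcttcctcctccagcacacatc
Apcs: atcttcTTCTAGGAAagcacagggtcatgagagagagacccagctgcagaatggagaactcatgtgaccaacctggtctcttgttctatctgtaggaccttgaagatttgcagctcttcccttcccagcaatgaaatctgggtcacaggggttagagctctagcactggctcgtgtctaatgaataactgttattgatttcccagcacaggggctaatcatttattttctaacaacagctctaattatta
Orm2: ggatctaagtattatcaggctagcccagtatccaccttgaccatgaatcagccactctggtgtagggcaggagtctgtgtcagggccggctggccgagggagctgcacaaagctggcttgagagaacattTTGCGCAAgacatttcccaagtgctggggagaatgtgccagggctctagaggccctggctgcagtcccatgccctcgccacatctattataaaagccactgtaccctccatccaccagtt
Saa3: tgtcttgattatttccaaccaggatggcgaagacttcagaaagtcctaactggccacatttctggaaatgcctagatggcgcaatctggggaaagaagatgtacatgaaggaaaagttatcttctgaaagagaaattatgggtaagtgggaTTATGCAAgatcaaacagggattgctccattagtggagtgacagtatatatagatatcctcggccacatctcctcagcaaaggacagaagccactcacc

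Motifs of 3 kinds were searched on both strands: TTCNNNGAA, the form bound by STAT factors, TTGCNNAA, bound by C/EBP factors, and the NF-kB consensus. *Saa1* and *Saa2* held the same C/EBP letters, from 182 to 175 and from 183 to 176 bases before the start, within upstream sequences 95.6% identical over 249 bases. *Lcn2* held a C/EBP match from 216 to 209, *Orm2* from 120 to 113 and *Saa3* from 99 to 92 bases before the start, and *Apcs* a STAT match from 244 to 236. None of the 3 motifs was in the window of *Lrg1*. RefSeq promoters matched 4 of the 5 genes called higher. *Fgl1* was not matched, so that it was not searched for motifs. *Fam171a1* has 3 RefSeq starts, of which 1 held C/EBP letters. RefSeq promoters matched 59 of the 79 genes that rose with *Saa1*. Of their 64 promoters, 16 held the C/EBP letters (25%, against 9.6% of all 32851 promoters), 7 the STAT letters (10.9% against 7.0%) and 7 the NF-kB consensus (10.9% against 7.3%). Of the 132 genes that fell, 96 matched with 136 promoters, and the shares were 9.6%, 5.9% and 11%. These are matches of letters, given as a description, and no factor's binding was measured.

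The serum amyloid A and orosomucoid genes other than *Saa1* followed it. The 6 tested members include *Saa2*, which as said above is not fully separate from the value that chose the groups. All 6 rose with *Saa1*, and *Saa2* alone was called between the groups. High and low mice did not overlap for 5, *Saa2* among them. This held for 14 of all genes on the higher side (0.11%) and 17 on the lower (0.133%). The median difference, with *Saa2* included, was 2.29. *Orm2*, for an orosomucoid, a plasma carrier of lipophilic and basic drugs, had 32.7 to 1963 FPKM in high mice (median 70.2) and 5.75 to 15.4 FPKM in low mice (median 8.28), and rose by 0.78 per log2 unit of *Saa1* (SE 0.068, limma adjusted p = 7.39e-06). WT replicate 7 was the highest. *Orm1* had 1407 to 5661 FPKM in high (median 2012) and 627 to 1263 FPKM in low mice (median 747). *Saa3*, which is also made by macrophages, had 11.6 to 576 FPKM in high (median 27.7) and 3.1 to 8.21 FPKM in low mice (median 5.59). None of these overlapped between groups. *Saa4*, for the serum amyloid A expressed constitutively, had a median of 262 FPKM in high and 109 FPKM in low mice, also without overlap. *Orm3* had 3.17 and 1.01 FPKM and overlapped. Of the 6 genes, 4 also passed with the run as a term, namely *Saa2*, *Orm1*, *Orm2* and *Saa3*. *Orm1* and *Orm2* share 6.5% of their windows of 100 bases, so that their reads may have been split between them.

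Of 30 other positive acute-phase genes tested, 13 rose with *Saa1*, 0 fell, 3 were called between the groups (*Lcn2*, *Lrg1* and *Apcs*) and 4 did not overlap. The median difference was 0.58. Those named next were chosen after their values were seen. *Hp*, for haptoglobin, which binds free haemoglobin, had 3281 to 11656 FPKM in high mice (median 6913) and 2182 to 3274 FPKM in low mice (median 2655). The gap between WT replicate 8 and LKO replicate 7 was small, but no mouse overlapped, and *Hp* rose by 0.26 per log2 unit of *Saa1* (SE 0.026, limma adjusted p = 3.87e-05). *Hpx*, for the haem carrier haemopexin, had 4192 to 13657 FPKM in high (median 6148) and 2293 to 4408 FPKM in low mice (median 2787). *Serpina3n*, for a secreted protease inhibitor, had 351 to 1448 FPKM in high and 199 to 303 FPKM in low mice. Among the other genes that rose, medians in high and low mice were 1455 and 748 FPKM for *Itih4*, 728 and 396 FPKM for *Itih3*, 86.8 and 52.5 FPKM for *Lbp*, which presents endotoxin to CD14, and 487 and 356 FPKM for *Cp*, the copper-carrying ferroxidase of plasma. The fibrinogen chains *Fgb* and *Fgg* rose, with medians of 5798 and 3704 FPKM for *Fgb* and 4125 and 2715 FPKM for *Fgg*, while *Fga* had 3513 and 2317 FPKM at a limma adjusted p of 0.0564. *Crp*, a weak acute-phase gene in mice, had 276 and 247 FPKM (limma adjusted p = 0.416). *Steap4* had 74.1 and 29.6 FPKM (limma adjusted p = 0.114). Of the 13 genes, 5 also passed with the run as a term.

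**Figure D3:**
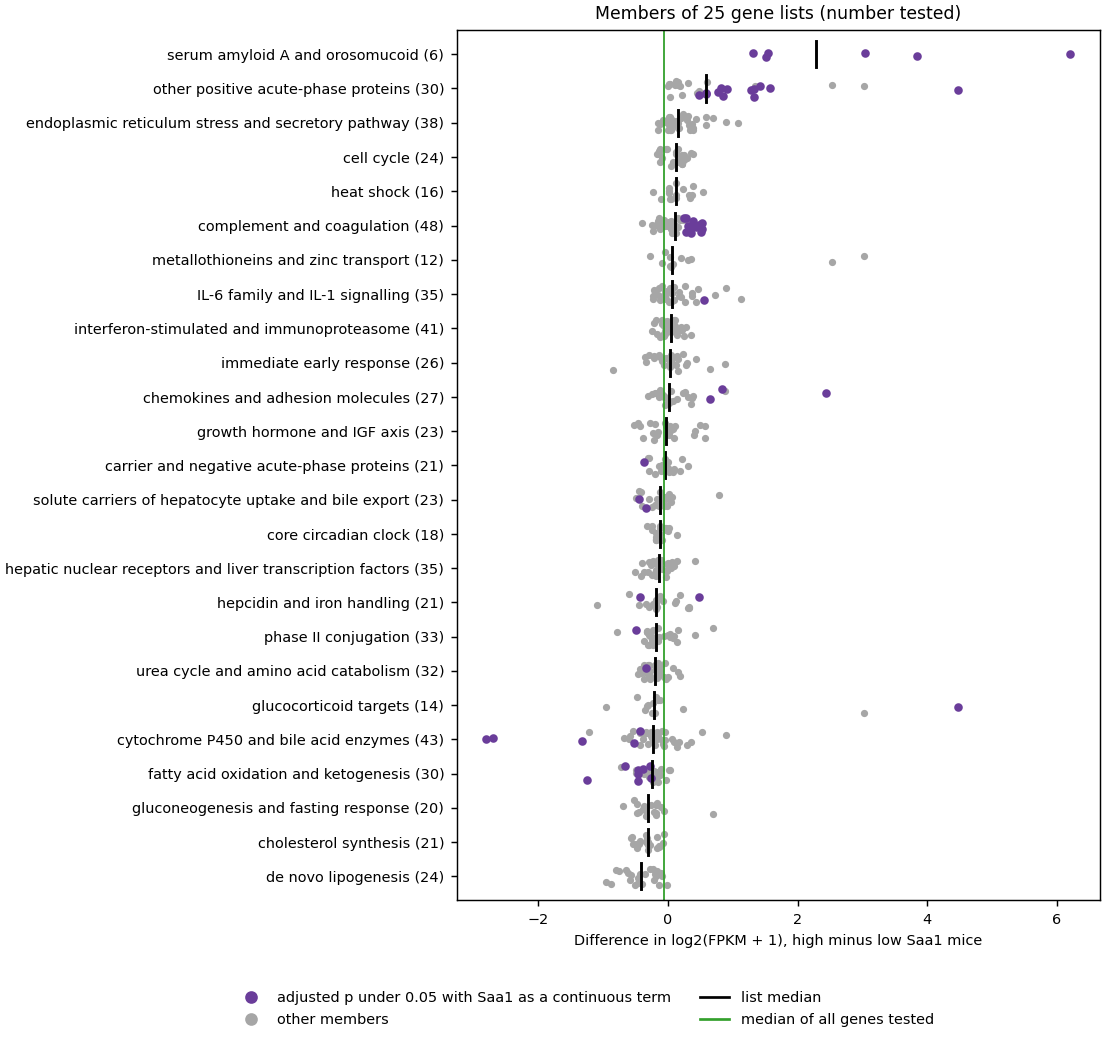
Difference in log2(FPKM + 1) between high and low *Saa1* mice for each member of 25 gene lists, with purple for genes past the threshold with *Saa1* as a continuous term, grey for the others, black bars for list medians and green for the median of all genes. The serum amyloid A and orosomucoid list (median 2.29) and the other acute-phase list (0.58) lie to the right, and the lipogenesis (-0.42) and cholesterol lists (-0.32) lie to the left with no gene past the threshold.

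Complement and coagulation genes rose in part. Of 48 tested, 12 rose and 0 fell with *Saa1*, and the median difference was 0.10. None was called between the groups and none passed with the run as a term. At an unadjusted p under 0.05 (limma), 20 had a positive and 4 a negative slope, against 418 and 1911 of all 12769 genes. The 2 most abundant members were *C3*, the central complement component, with medians of 2657 FPKM in high and 1843 FPKM in low mice, and *Vtn*, for vitronectin, with 2007 and 1664 FPKM, and both rose. Chosen after their values were seen, *C4b* had 581 and 383 FPKM, *Hc*, for complement C5, 286 and 206 FPKM, *Serping1*, for the C1 inhibitor, 670.5 and 512 FPKM, and *Cfb* 634 and 522 FPKM, and all of these rose. *Cfi* and *C4bp*, for inhibitors of complement, rose too, with medians of 402 and 344 FPKM, and 399 and 345 FPKM. *Plg*, for plasminogen, did not overlap between groups (1282 to 1591 FPKM against 1100.5 to 1277 FPKM) but missed the threshold (limma adjusted p = 0.0863).

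Of 35 tested genes of the IL-6 family and IL-1 signalling, 1 rose and 0 fell with *Saa1*, and the median difference was 0.05. At an unadjusted p under 0.05 (limma), 9 had a positive and 4 a negative slope, against 418 and 1911 of all 12769 genes. The gene that rose was *Nfkbiz*, for a nuclear protein of the I-kappa-B family that regulates NF-kB, with medians of 3.16 FPKM in high and 2.31 FPKM in low mice. The most abundant members, *Lifr* and *Il1rap*, had medians of 87.4 and 60.1 FPKM in high and 72.8 and 69.7 FPKM in low mice (limma adjusted p = 0.631 and 0.0713 by the continuous term). Chosen after their values were seen, *Socs3*, the feedback inhibitor of STAT3 signalling, had 3.14 to 14.8 FPKM in high mice (median 5.65) and 1.12 to 5.69 FPKM in low mice (median 2.01), at a limma adjusted p of 0.0544. *Stat3* itself had 41.9 and 29.3 FPKM (limma adjusted p = 0.192), and *Bcl3* 27.1 and 14.1 FPKM (limma adjusted p = 0.0649). The levels overlapped for each of these.

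Among 27 chemokines and adhesion molecules tested, 3 rose, 0 fell and the median difference was 0.01. At an unadjusted p under 0.05 (limma), 7 had a positive and 0 a negative slope. *Cxcl1*, for a neutrophil chemokine that hepatocytes also make, had 6.07 to 158 FPKM in high (median 45.2) and 1.54 to 15.2 FPKM in low mice (median 5.41). WT replicate 8, the lowest high mouse, lay below LKO replicate 7, the highest low mouse. *Icam1*, for an adhesion molecule of leukocytes, had medians of 8.57 and 4.55 FPKM, and *Cxcl14* of 1.9 and 0.61 FPKM. *Cxcl12*, the most abundant member, had 133 and 143 FPKM. None of the 3 that rose passed with the run as a term. Of 41 interferon-stimulated and immunoproteasome genes, 0 passed (limma, 3 at an unadjusted p under 0.05), with a median difference of 0.04, and its most abundant members *B2m* and *H2-K1* had 1515 and 862 FPKM in high and 1474 and 851 FPKM in low mice. Of 26 immediate early genes, 0 passed (limma, 5 at an unadjusted p under 0.05, median 0.03), and *Zfp36* had medians of 46.7 and 52.3 FPKM. Of 14 glucocorticoid targets, *Lcn2* alone passed, and their median was -0.21.

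Metallothioneins stood higher in many high mice but missed the threshold. *Mt1*, for a protein that binds zinc and copper, had 95.3 to 4644 FPKM in high mice (median 518) and 18.0 to 474 FPKM in low mice (median 75.6). *Mt2* had 40.8 to 3571 FPKM in high (median 285) and 7.41 to 330.1 FPKM in low mice (median 26.0). LKO replicate 8 was the highest and WT replicate 8 the lowest of the high mice, and LKO replicate 7 was the highest of the low mice. The log2 differences were 2.53 (SE 0.81) and 3.03 (SE 0.91), with limma adjusted p = 0.218 and 0.197, and 0.0871 and 0.0586 with the continuous term. Of the 12 metallothionein and zinc transport genes, 0 passed (limma, 5 at an unadjusted p under 0.05, 4 higher and 1 lower, median 0.06). Hepcidin, *Hamp*, the hormone that limits iron release and a known target of interleukin-6, had 1776 to 6557 FPKM in high (median 3337) and 1552 to 5096 FPKM in low mice (median 3591), with a log2 difference of 0.11 (SE 0.347). Of 21 genes of iron handling, *Cp* rose and *Slc40a1*, for the iron exporter ferroportin, fell (medians of 31.9 FPKM in high and 39.7 FPKM in low mice), and the list median was -0.18.

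Of 21 genes for carrier and negative acute-phase proteins, 0 rose and 1 fell, with a median difference of -0.05. The gene that fell was *Ttr*, for transthyretin, the carrier of thyroxine and of retinol-binding protein, with 4405 to 6590 FPKM in high mice (median 4926) and 5415 to 7654 FPKM in low mice (median 6990). Its log2 difference was -0.38 (SE 0.104). *Alb*, for albumin, had 31146 to 44064 FPKM in high (median 37281) and 36723 to 61191 FPKM in low mice (median 47785), and missed the threshold (limma adjusted p = 0.0649). *Serpina1e*, the next most abundant member, had 18998 and 17618 FPKM. *Ttr* did not pass with median-ratio scaling. At an unadjusted p under 0.05 (limma), 6 members had a negative and 2 a positive slope, against 1911 and 418 of all 12769 genes.

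Of 30 genes of fatty acid oxidation and ketogenesis, 8 fell and 0 rose with *Saa1*, and 22 had a negative slope at an unadjusted p under 0.05, against 1911 of all 12769 genes. The median difference was -0.25, and 28 differences were negative. With median-ratio scaling 4 fell, and with the run as a term 0 did. The 8 genes were chosen after their values were seen. *Ehhadh*, for the peroxisomal bifunctional enzyme, had 42.4 to 67.4 FPKM in high mice (median 55.8) and 62.8 to 119 FPKM in low mice (median 88.0), with a log2 difference of -0.66 (SE 0.121). *Acot1*, for a cytosolic acyl-CoA thioesterase, had 1.62 to 6.47 FPKM in high and 4.82 to 16.9 FPKM in low mice. High and low mice overlapped for both genes, and LKO replicate 7 was the lowest of the low group for both. The medians in high and low mice were 0.36 and 0.82 FPKM for *Acot2*, 58.8 and 76.8 FPKM for *Acadl*, 77.8 and 117 FPKM for *Acat1*, 446 and 542 FPKM for *Acaa2*, 255 and 349 FPKM for *Acaa1b*, and 84.9 and 101 FPKM for *Hadhb*. *Fabp1*, the most abundant member, did not pass and had 4823 and 5066 FPKM.

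Of 43 cytochrome P450 and bile acid genes, 5 fell and 0 rose with *Saa1*, 3 fell with median-ratio scaling and 0 with the run as a term, and the median difference was -0.24. At an unadjusted p under 0.05 (limma), 17 had a negative and 2 a positive slope, against 1911 and 418 of all 12769 genes. *Cyp4a10*, for a fatty acid omega-hydroxylase and a target of PPAR-alpha, had 2.65 to 113 FPKM in high mice (median 12.9) and 22.8 to 282 FPKM in low mice (median 58.6). *Cyp4a14*, of the same family, had 0.51 to 20.3 FPKM in high (median 6.69) and 12.2 to 120 FPKM in low mice (median 37.8). Within WT mice the log2 differences were -4.86 and -4.79. Within LKO mice they were -0.93 and -0.78, and high and low LKO mice overlapped for both genes. The 3 low WT mice of the run 36 to 38 had 167 to 282 FPKM of *Cyp4a10* and 61.3 to 120 FPKM of *Cyp4a14*. WT replicate 4, the remaining low WT mouse, had 22.8 and 15.5 FPKM. With the run as a term the slopes went from -0.564 to -0.291 for *Cyp4a10* and from -0.525 to -0.334 for *Cyp4a14*. The difference between genotypes was not called (limma interaction, adjusted p = 0.469 for *Cyp4a10* and 0.374 for *Cyp4a14*). *Cyp2c40*, *Cyp2c68* and *Cyp4a31* also fell, with medians of 18.4 and 62.3 FPKM, 123 and 164 FPKM, and 0.875 and 1.87 FPKM. These 5 were chosen after their values were seen, and reads may be split among such near-identical family members. The most abundant members, *Cyp2e1* and *Cyp2f2*, had 2676 and 1053 FPKM in high and 2871 and 934 FPKM in low mice.

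**Figure D4:**
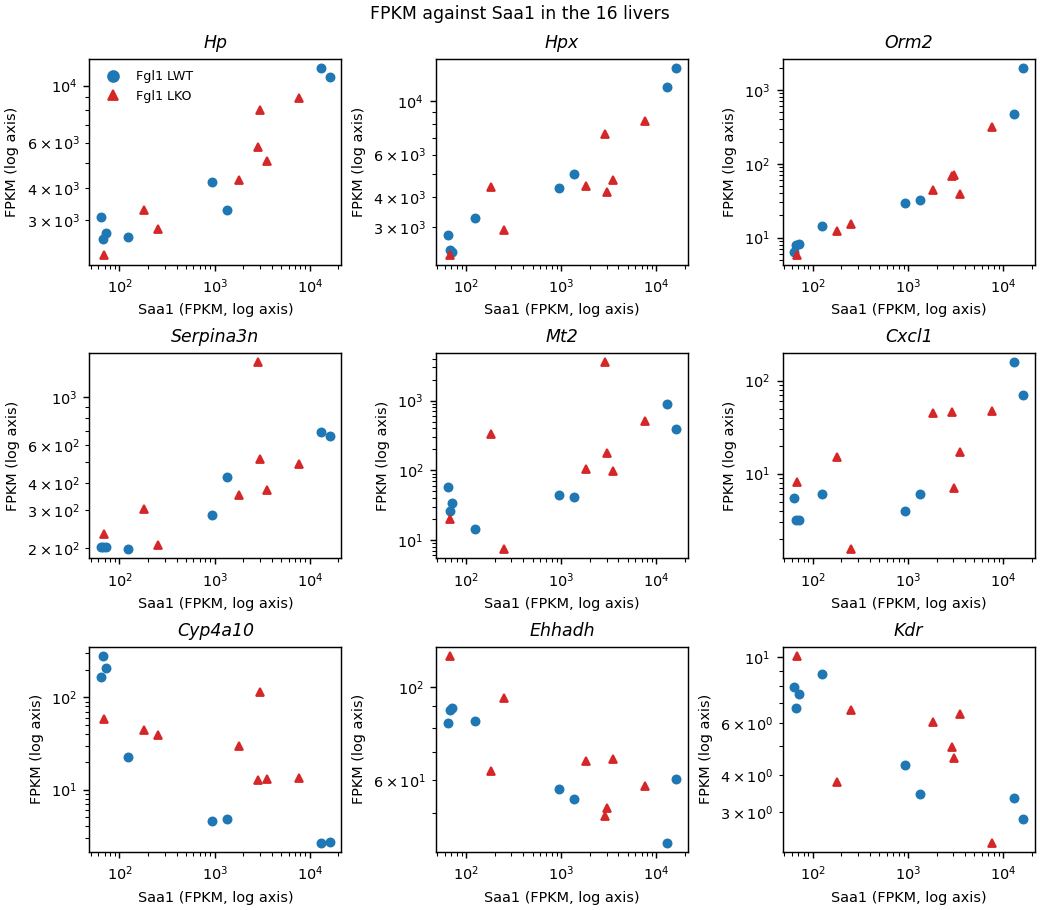
FPKM of 9 genes against *Saa1* in the 16 livers, all on log axes, with symbols for genotype. *Hp*, *Hpx*, *Orm2* and *Serpina3n* rise with *Saa1*, *Mt2* and *Cxcl1* scatter more widely (7.41 to 3571 and 1.54 to 158 FPKM), and *Cyp4a10*, *Ehhadh* and *Kdr* fall.

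Lipid and sterol synthesis lists lay below 0 without a gene past the threshold. A negative difference was also found for 9067 of all 12769 genes, against which the counts of negative members here and in the cell type lists are to be read. All 24 genes of de novo lipogenesis had a negative difference, with a median of -0.42, and 0 passed (limma, 3 at an unadjusted p under 0.05). *Scd1*, for stearoyl-CoA desaturase, had 338 to 2494 FPKM in high (median 1383) and 880 to 4259 FPKM in low mice (median 1467), and *Thrsp* had medians of 157 and 146 FPKM. In WT mice alone the differences of *Scd1* and *Thrsp* were positive, 0.25 and 0.98, and with the replicate block they were 0.78 and 2.04. The list median moved to -0.72 with the run as a term and to -0.81 without the run 36 to 38. All 21 genes of cholesterol synthesis were negative too (median -0.32, 0 past the threshold and 1 at an unadjusted p under 0.05), of which *Fdps* had 331 and 377 FPKM and *Sc5d* 195 and 288 FPKM, but with the run as a term the median was -0.09, close to that of all genes. Of 20 genes of gluconeogenesis and the fasting response, 0 passed (limma, 10 at an unadjusted p under 0.05, median -0.30), and *Pck1*, for the key enzyme of gluconeogenesis, had medians of 874 and 939 FPKM and *Tat* of 692 and 988 FPKM. The time since the last meal is not in the labels.

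Other functions of hepatocytes showed few calls. Of 32 genes of the urea cycle and amino acid catabolism, *Cps1*, for the first enzyme of the urea cycle, fell (683 to 947 FPKM in high and 848 to 1295 FPKM in low mice) and the median was -0.20, with *Ass1* at 2203 and 2560 FPKM and *Bhmt* at 2082 and 1989 FPKM. Of 33 phase II genes, *Gstm1*, for a glutathione transferase, fell and did not overlap, with 723 to 859 FPKM in high and 960.1 to 1544 FPKM in low mice, and the list median was -0.19. *Gstp1* had 5316 and 4862 FPKM and *Gsta3* 951 and 1260.1 FPKM. Of 23 carriers of uptake and bile export, *Slco1a1* and *Abcc2* fell, with medians of 102 and 134 FPKM and of 72.1 and 83.9 FPKM, and the median was -0.12, with *Slc10a1*, for the bile acid importer, at 385 and 467 FPKM and *Slc27a5* at 412 and 425 FPKM. None of *Cps1*, *Gstm1*, *Slco1a1* and *Abcc2* passed with median-ratio scaling or with the run as a term. At an unadjusted p under 0.05 (limma), 11 urea cycle and amino acid genes had a negative and 0 a positive slope. The counts were 11 and 2 for phase II genes and 9 and 1 for the carriers, against 1911 and 418 of all 12769 genes. Of 35 nuclear receptors and liver transcription factors, 0 passed (limma, 8 at an unadjusted p under 0.05, median -0.14), with *Hnf4a* at 178 and 163 FPKM and *Cebpa* at 96.7 and 138 FPKM. Of 23 genes of the growth hormone and IGF axis, 0 passed (limma, 6 at an unadjusted p under 0.05, median -0.03), with *Mup7* at 28110.0 and 19947 FPKM.

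The secretory pathway, heat shock, cell cycle and clock lists had no calls. The medians of the differences were 0.15 for 38 genes of the secretory pathway and endoplasmic reticulum stress, 0.12 for 16 heat shock genes, 0.12 for 24 cell cycle genes and -0.12 for 18 clock genes, with 0 past the threshold of limma in each. At an unadjusted p under 0.05 there were 9, 2, 1 and 1 genes of these lists. The 9 and the 2 were all higher, and the others were lower. Positive differences were found for 32 of the 38 secretory pathway genes and 14 of the 16 heat shock genes, against 3665 of all 12769 genes. *Hspa5*, the chaperone of the endoplasmic reticulum, had medians of 598 FPKM in high and 405 FPKM in low mice, and *Calr* of 631 and 524 FPKM. *Hspa8* had 811 and 508 FPKM, and the clock gene *Nr1d1* 25.4 and 18.2 FPKM. In the cell cycle list, *Pcna* had 17 and 18.2 FPKM.

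Markers of several liver cell types were followed because a bulk level cannot say whether fewer cells of a type or less RNA per cell lie behind it, which cannot be told apart here. Of 12 neutrophil markers, 6 passed the filter on low values, and of these *S100a8*, *S100a9* and *Retnlg* rose. None of the 3 passed with the run as a term (limma adjusted p = 0.152, 0.144 and 0.169), and *S100a8* missed the threshold with median-ratio scaling (limma adjusted p = 0.0528). The summed markers were 3.12 to 36.0 FPKM in high (median 18.4) and 1.3 to 22.5 FPKM in low mice (median 3.41). *S100a8*, for a calcium-binding protein of neutrophils, had a median of 8.2 FPKM in high and 0.88 FPKM in low mice, where WT replicate 4 had 11.4 FPKM. The defining marker *Ly6g* was at 0 in all low mice and at no more than 0.1 FPKM in high mice, and *Camp* was at 0 in all low mice. *Prtn3*, for proteinase 3 of neutrophil granules, was chosen after its values were seen. It had 1.08 to 26.4 FPKM in high and 0.0 to 0.9 FPKM in low mice without overlap. It also passed with the run as a term. The listed granule genes *Mpo* and *Elane* had at most 0.13 and 0.35 FPKM in high and 0.08 and 0.27 FPKM in low mice. The cell source of *Prtn3* was not tested. Of 6 monocyte markers tested, *Chil3* rose, with medians of 0.675 and 0.1 FPKM, and the sums were 8.94 to 19.7 and 8.6 to 17.8 FPKM. The part of these cells in the acute-phase values was not tested.

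Of 12 markers of liver sinusoidal endothelial cells, *Stab2* and *Kdr* fell with *Saa1*, and all 12 had a negative difference (median -0.49) and a negative slope at an unadjusted p under 0.05. Their sum was 50.0 to 142 FPKM in high (median 93.3) and 84.3 to 199.0 FPKM in low mice (median 131). *Kdr*, for a receptor of vascular endothelial growth factor, had 2.36 to 6.42 FPKM in high mice (median 4.01) and 3.79 to 10.1 FPKM in low mice (median 7.5), and *Stab2*, for a scavenger receptor, had medians of 5.43 and 7.99 FPKM. The lowest high mouse was LKO replicate 5 and the lowest low mouse LKO replicate 7 for both. The endothelial genes *Erg*, *Tek*, *Ptprb* and *Vwf* were picked from the 132 genes that fell, so that they add no separate support. They had medians of 0.98 and 2.18 FPKM, 1.54 and 2.56 FPKM, 3.44 and 5.83 FPKM, and 0.62 and 0.94 FPKM. None of them passed with the run as a term (limma adjusted p = 0.138, 0.245, 0.177 and 0.395). *Clec4g* and *Fcgr2b*, the most abundant markers, had 26.3 and 16 FPKM in high and 35.5 and 26.0 FPKM in low mice and did not pass. With median-ratio scaling 1 of the 12 fell and with the run as a term 0 did. All 14 stellate cell and fibroblast markers were negative as well (median -0.30), and 0 passed (limma, 7 at an unadjusted p under 0.05). Their sum was 96.5 to 200.3 FPKM in high and 158 to 253 FPKM in low mice. *Ecm1* had 26.8 to 53.4 FPKM in high and 54.1 to 81.3 FPKM in low mice, without overlap (limma adjusted p = 0.0614), and *Dcn* had medians of 51.4 and 68.6 FPKM.

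**Figure D5:**
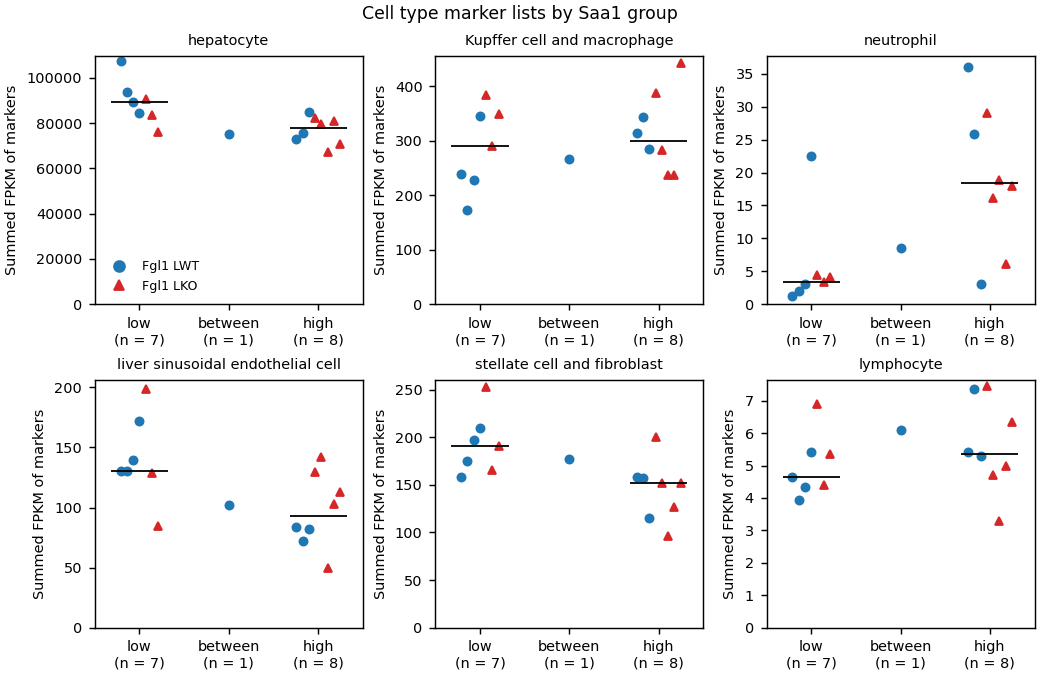
Summed FPKM of 6 cell type marker lists in each mouse by *Saa1* group, with symbols for genotype and a line at the median. Neutrophil sums are 3.12 to 36.0 FPKM in high and 1.3 to 22.5 FPKM in low mice, endothelial sums have medians of 93.3 and 131 FPKM, and all 6 lists overlap between the groups.

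Hepatocyte markers had a median difference of -0.23, and of 10, *Ttr* and *Cps1* fell, with sums of 67411 to 84763 FPKM in high and 76188 to 107642 FPKM in low mice. Of 15 Kupffer cell and macrophage markers 0 passed (limma, 1 at an unadjusted p under 0.05, median 0.09), with sums of 237 to 442 and 173 to 384 FPKM, and *Lyz2* had medians of 56.2 and 49.4 FPKM. The sign of this median turned to -0.09 with the run as a term. Of 9 lymphocyte markers tested 0 passed (limma, 0 also at an unadjusted p under 0.05, median 0.06), with sums of 3.28 to 7.44 and 3.94 to 6.89 FPKM. No gene passed, even unadjusted, among the tested markers of cholangiocytes (5, median 0.06), red blood cells (5, -0.19), pancreatic acinar cells (2, 0.04), adipocytes (2, -0.17) and skeletal muscle (1, 0.08).

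Genes outside the lists that were called by the continuous term included *Tmem176a* and *Tmem176b*, neighbouring genes for membrane proteins, chosen after their values were seen. *Tmem176a* had 154 to 289 FPKM in high (median 183) and 97.9 to 159 FPKM in low mice (median 121), and *Tmem176b* had medians of 227 and 151 FPKM. *Prg4*, for lubricin, had 10.3 to 34.0 FPKM in high and 4.15 to 13.1 FPKM in low mice. *Clu*, for clusterin, an extracellular chaperone, had 1091 to 1461 FPKM in high and 826 to 1046 FPKM in low mice, without overlap, and *Cd302* had 214 to 294 and 174 to 207 FPKM, also without overlap. Among the genes that fell, *Retsat*, for retinol saturase, had medians of 101 and 152 FPKM and *Car3*, for carbonic anhydrase 3, of 1189 and 1784 FPKM. *Bmp5*, *Septin4* and *Mpzl1* did not overlap, with at most 1.69, 6.34 and 2.5 FPKM in high and at least 1.97, 6.61 and 2.6 FPKM in low mice.

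Whether the difference between high and low mice depended on genotype was tested with an interaction term, which called 1 gene (0.00783%), *H4c17*, for a histone H4. It was listed at 0 FPKM in all high mice and in the low WT mice, and at 0.4, 0.75 and 0.79 FPKM in the low LKO mice, so that among the mice compared it passed the filter on low values only through the group where it was above 0, and the call supports no difference between genotypes. At an unadjusted p under 0.05 there were 962 genes. In WT mice alone, 5 genes were called higher and 20 lower, and in LKO mice alone 0, with 674 at an unadjusted p under 0.05. The lower genes in WT mice included *Cyp4a14*, *Acat1* and *Acot1* of lipid metabolism and the endothelial genes *Kdr*, *Ptprb* and *Erg*, chosen after their values were seen. In WT mice the high group holds both mice with the highest *Saa1*, and the low group all 3 of the run 36 to 38. Across all genes, the first principal component held 27.8% and the second 12.9% of the variance, and both scores differed between high and low mice (exact permutation tests within genotype, two-sided, adjusted p = 0.0173 for both), though neither genotype passed alone (exact permutation p = 0.214 and 0.393 in LKO mice, and 0.0571 for both in WT mice, the smallest p that 3 against 4 mice allow).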

How the data were processed

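Liver RNA of 16 mice was sequenced from strand-specific mRNA libraries. The authors filtered the reads and aligned them to mm39 with HISAT and to reference genes with Bowtie2 (names from the submitters' processing notes and the methods, versions and counting step not given in the sources used here), and they deposited FPKM for 17003 genes, written with decimal commas. These were read as deposited. A mean of 0.1 FPKM or more was required (12770 genes), and all but *Saa1* were tested.

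Mice were grouped by *Saa1*, and genotypes came from the labels. log2(FPKM + 1) was compared with limma 3.58.1 (R 4.3.3; linear model with genotype as covariate, moderated with trend, two-sided, Benjamini-Hochberg adjustment, threshold 0.05), after the step was tested on simulated data. Python 3.11.15 with numpy 2.4.6, scipy 1.17.1, pandas 2.3.3 and matplotlib 3.10.9 served for the rest. Pairs of mice with identical values were looked for and 0 were found. The members and lists were chosen with earlier results of these data known. Named were *Saa1*, *Fgl1*, the called genes without overlap (up to 10 in each direction), up to 4 called members of each list and, where none was called, the 2 members with the highest mean FPKM. Some genes of the lists are not reported here. Other genes were named after their values were seen, as stated. Gene positions are from GRCm39 (GENCODE), upstream sequences from RefSeq. Alternatives were other pseudocounts, filters, scalings, covariates, weights and thresholds, a replicate block, single genotypes, leaving out mice, a rank-sum test, and, chosen after seeing the data, leaving out the run 36 to 38 or the pair of mice with the highest *Saa1*, and the alternatives of the continuous term.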

Additional observations from a re-analysis of the deposited data

Results flagged for a closer look

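Among 318 groups of mice searched, 22 had a highest or lowest mouse far from the others, where chance flags about 1 in 20 groups (15.9). LKO replicate 7 was the highest of the low mice for *Serpina3n* (302.7 FPKM), *Steap4* (97.0), *Bcl3* (32.5), *Il1r1* (39.1), *Ly6c2* (1.23) and *Cidec* (2.53 FPKM), and the lowest of them for *Fcgr2b* (12.1 FPKM). WT replicate 7, the mouse with the most *Saa1*, was the lowest of the high mice for *Pck1* (203 FPKM), *Mup7* (15416) and *Alas2* (37.5 FPKM), and the highest for *Sc5d* (412), *Orm3* (41.6) and *Plg* (1591 FPKM). LKO replicate 8 was the highest of the high mice for *Spp1* (255 FPKM) and *Cidec* (7.04 FPKM). The other mice that stood apart were WT replicate 2, low for *Serpina1e* (7404 FPKM) and *Alas2* (50.5 FPKM), LKO replicate 6, low for *Scd1* (338 FPKM), WT replicate 5, low for *Cps1* (683 FPKM), LKO replicate 4, low for *Plg* (1100.5 FPKM), WT replicate 1, high for *Apoa1* (13860.2 FPKM), and WT replicate 4, high for *S100a8* (11.4 FPKM).

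For *H4c17*, the interaction of genotype and *Saa1* group was -0.71 on the log2 scale (limma, adjusted p = 0.0295), with the gene at 0 FPKM in every mouse compared but the 3 low LKO mice. WT replicate 6, left out of the comparison, had 515 FPKM of *Saa2* and 719 FPKM of *Lrg1*, above the highest low mice (88.3 and 373 FPKM).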

How the results depend on the processing

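The 6 genes called between high and low mice became 3 with no filter on low values, 3 with robust empirical Bayes, 59 with array weights (37 higher, 22 lower), 25 in WT mice alone, 0 in LKO mice alone, 2 with a term for the run of mouse numbers, 0 without the run 36 to 38 (962 at an unadjusted p under 0.05), 2 without the pair of mice with the highest *Saa1*, 3 at an adjusted p under 0.01, 0 with an exact rank-sum test without covariate (1532 at an unadjusted p under 0.05) and 211 with *Saa1* as a continuous term. In the rank-sum test, genes without overlap had the smallest p that these mice allow, 0.000311. After adjustment over all genes it became 0.128, so that this test could call no gene here. In the limma fit between the groups, leaving out each mouse gave 3 to 149 genes. The extremes were 149 without LKO replicate 7 (41 higher, 108 lower) and 44 without WT replicate 8 (35 higher, 9 lower). With the other alternatives the count was 4 to 8. With a replicate block, 1 gene was called. Same-numbered WT and LKO mice did not deviate together (7 pairs, r from -0.313 to 0.124, 2 of them above 0.1), so the numbers were not taken as a pairing. The 211 genes of the continuous term became 139 with median-ratio scaling, 20 with a term for the run, 25 when the run 36 to 38 was left out, 16 without the pair of mice with the highest *Saa1*, and 45 (without WT replicate 5) to 463 (without LKO replicate 7) when each mouse was left out. The interaction called 1 gene in the comparison as reported, 0 with a pseudocount of 0.01, a mean of at least 1 FPKM or quantile normalization, 2 with no filter, and 0 to 2 when each mouse was left out. No called gene changed sign in any alternative. Of the 159 named genes with a test, 46 that were not called changed sign in at least 1 alternative. There were 144 such changes, 25 of them with the replicate block. The cause of these shifts was not tested. The number of reads is unknown, so that no counting error stands behind a level near 0.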
